A study of Mus musculus with 4 samples.

Results

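The 6 solute carrier families Slc1, Slc3, Slc7, Slc36, Slc38 and Slc43, which hold most of the amino acid carriers of the cell surface and the lysosome, were followed in P19 cells. P19 is a mouse embryonal carcinoma line that resembles early embryonic cells and differentiates in retinoic acid. A gene belonged to the set when the probe annotation of the array gave its probe set a single symbol of 1 of these families followed only by digits. This found 46 probe sets for 42 genes, of 41345 probe sets and 22180 named genes on the array. Each of 4 conditions had 1 array and no replicate. They were wild-type cells without retinoic acid (vehicle, ethanol), wild-type cells after 4 days in 10 µM retinoic acid, and the same 2 states of a clone that carried the constructs pBI-EGFP-FLAG-mCtcfl and pTA-N and is called the Ctcfl line here. In that Tet-Off clone doxycycline represses the transgene, and it had been withdrawn for 2 days before RNA was taken in both states. The labels disagree on wild-type cells: the sample fields give 2 µg/ml doxycycline, whereas the growth description gives ordinary medium without it. The line is a single clone, so its integrated vectors, its clonal origin and Ctcfl (a zinc finger protein related to the insulator protein Ctcf) cannot be told apart. For the Ctcfl line the sample fields also give 2 µg/ml doxycycline, beside the 2 days without it. Exposure to doxycycline may thus differ between the lines, and it cannot be told apart from those factors either.

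Amino acids cross the cell membrane by exchangers and by carriers driven by sodium or protons. Slc1 carriers take up glutamate and small neutral amino acids with sodium. Slc3 proteins are heavy chains that bring the Slc7 light chains to the membrane, and the remaining Slc7 members carry cationic amino acids such as arginine. Slc36 carriers move amino acids with protons, Slc38 carriers move glutamine and other neutral amino acids with sodium, and Slc43 members carry large neutral amino acids or nucleobases. Many of these genes are known targets of ATF4, the transcription factor that is made when amino acids run short and that binds a composite element with C/EBP proteins.

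The promoters of Slc7a11, Slc1a4 and Slc7a7 are shown because they hold that element and because these genes were among the largest differences described further on. The windows run from 150 bases before to 12 bases after the RefSeq start site on GRCm38.p6, all on the minus strand, at chr3:50443602-50443763 for Slc7a11, chr11:20332702-20332863 for Slc1a4 and chr14:54417933-54418094 for Slc7a7. Capitals mark each match to TGATGNAA or its reverse complement TTNCATCA.
Slc7a11: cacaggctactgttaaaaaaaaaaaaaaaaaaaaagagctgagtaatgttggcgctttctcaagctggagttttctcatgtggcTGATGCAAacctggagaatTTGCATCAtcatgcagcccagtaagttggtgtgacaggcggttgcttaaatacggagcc
Slc1a4: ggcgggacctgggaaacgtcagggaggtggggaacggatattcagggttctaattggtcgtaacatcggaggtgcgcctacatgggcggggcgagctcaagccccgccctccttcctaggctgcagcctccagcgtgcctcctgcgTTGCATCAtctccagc
Slc7a7: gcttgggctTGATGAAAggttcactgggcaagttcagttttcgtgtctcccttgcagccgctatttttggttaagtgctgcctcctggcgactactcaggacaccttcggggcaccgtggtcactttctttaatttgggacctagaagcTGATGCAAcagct
Slc7a11 held 2 matches, on opposite strands, that began 66 and 47 bases before its start site. Slc1a4 held 1 match that began 4 bases before the start site. Slc7a7 held 2 in this window, 141 bases and 1 base before the start, and the latter lay 243 bases before a further RefSeq start of the same gene. Among all 32851 RefSeq promoter windows of 300 bases (250 before to 50 after the start), 3.97% held a match, against 4 of 42 windows of the transporters. Of those 4 windows, 2 overlap and belong to Slc7a7, so 1 site is counted in both. Counted by gene, 3 of 31 transporters held a match, beside 4.51% of all genes with a window. The antioxidant response element of NRF2, TGACNNNGC on either strand, lay in 6 of the 42 windows, of Slc7a1, Slc7a6, Slc36a1, Slc38a2 and Slc43a1, and in 12.4% of all windows. By gene this was 5 of 31, beside 14% of all genes with a window. No window of a transporter held both motifs. The windows belonged to 31 of the 42 genes. Slc1a5, Slc7a2, Slc7a3, Slc7a4, Slc7a5, Slc7a12, Slc7a13, Slc36a2, Slc38a1, Slc38a3 and Slc43a3 were without an entry.

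Signals are given as log2 values made by RMA, a method that corrects background, normalizes the arrays and summarises each probe set. A gene with several probe sets was read from the one with the highest mean. A gene was compared when its signal reached log2 6 on at least 1 array, which 41 of the 42 transporters and 18310 of all genes did. Slc7a12 did not, with signals between 4.14 and 4.43. As a guide to background, the 95th percentile of 1088 olfactory receptor genes lay between 6.80 and 6.94 on the arrays. The transporters were above it on all 4 arrays in 29 genes, on some arrays in 7 and on none in 6, which were Slc1a1, Slc7a9, Slc7a12, Slc7a13, Slc36a3 and Slc38a11. A difference that rests on a signal below that percentile may be too small, since the probe set can then be reading background, and a difference of responses built on it can be off either way. The number of arrays limits the precision, and 1 array a condition gives no error for a single difference. Only a technical SD, between probe sets of the same gene, was available. It was log2 0.303 and 0.331 for retinoic acid in the wild type and the Ctcfl line. Between the lines it was 0.262 without and 0.226 with retinoic acid. Those probe sets share the same arrays, so this SD holds no variation between arrays, RNA preparations or cultures.

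Ctcfl and the markers of pluripotent cells followed the labels. The Ctcfl signal was 7.86 and 7.13 in the wild type without and with retinoic acid, and 10.41 and 9.56 in the Ctcfl line. Of 8 markers of pluripotent cells, 6 fell with retinoic acid and 0 rose in limma, and their mean signal went from 10.61 to 8.68 in the wild type and from 10.99 to 8.90 in the Ctcfl line. Pou5f1, a core pluripotency factor, had retinoic acid differences of log2 -1.27 in the wild type and -1.89 in the Ctcfl line. With retinoic acid 4 of 6 neural markers (Sox1, Pax6, Nes and Dcx), 1 of 8 endoderm markers (Gata6) and 1 of 6 mesenchyme markers (Dcn) rose in limma. Of these 3 lists 0 genes were called as falling, and the 6 are named after their values were seen. The other neural markers did not rise alike. Tubb3 was lower in both lines (9.16 to 8.42 and 8.39 to 8.22, not called), and Neurog1 differed by log2 0.01 and 0.26. The mesenchyme marker Col1a1 differed by -0.61 in the wild type and 0.08 in the Ctcfl line. Mean signals from the undifferentiated to the retinoic acid state went from 7.64 to 8.55 (neural), from 7.62 to 8.62 (endoderm) and from 7.85 to 8.80 (mesenchyme) in the wild type, and from 7.60 to 8.62, from 7.60 to 7.99 and from 7.65 to 8.29 in the Ctcfl line. Single genes carried much of the last 2 lists: Gata6 went from 7.93 to 11.24 and Dcn from 5.94 to 10.64 in the wild type, while the median differences were 0.75 and 0.06 (endoderm, wild type and Ctcfl line, with 4 of 8 below 0 in the latter) and 0.22 and 0.20 (mesenchyme). Blood cell markers stayed between 5.28 and 6.84 on all arrays. The part of this change in cell state in the transporter results was not tested, and fewer cells of a type and less RNA per cell cannot be told apart here.

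**Figure D1:**
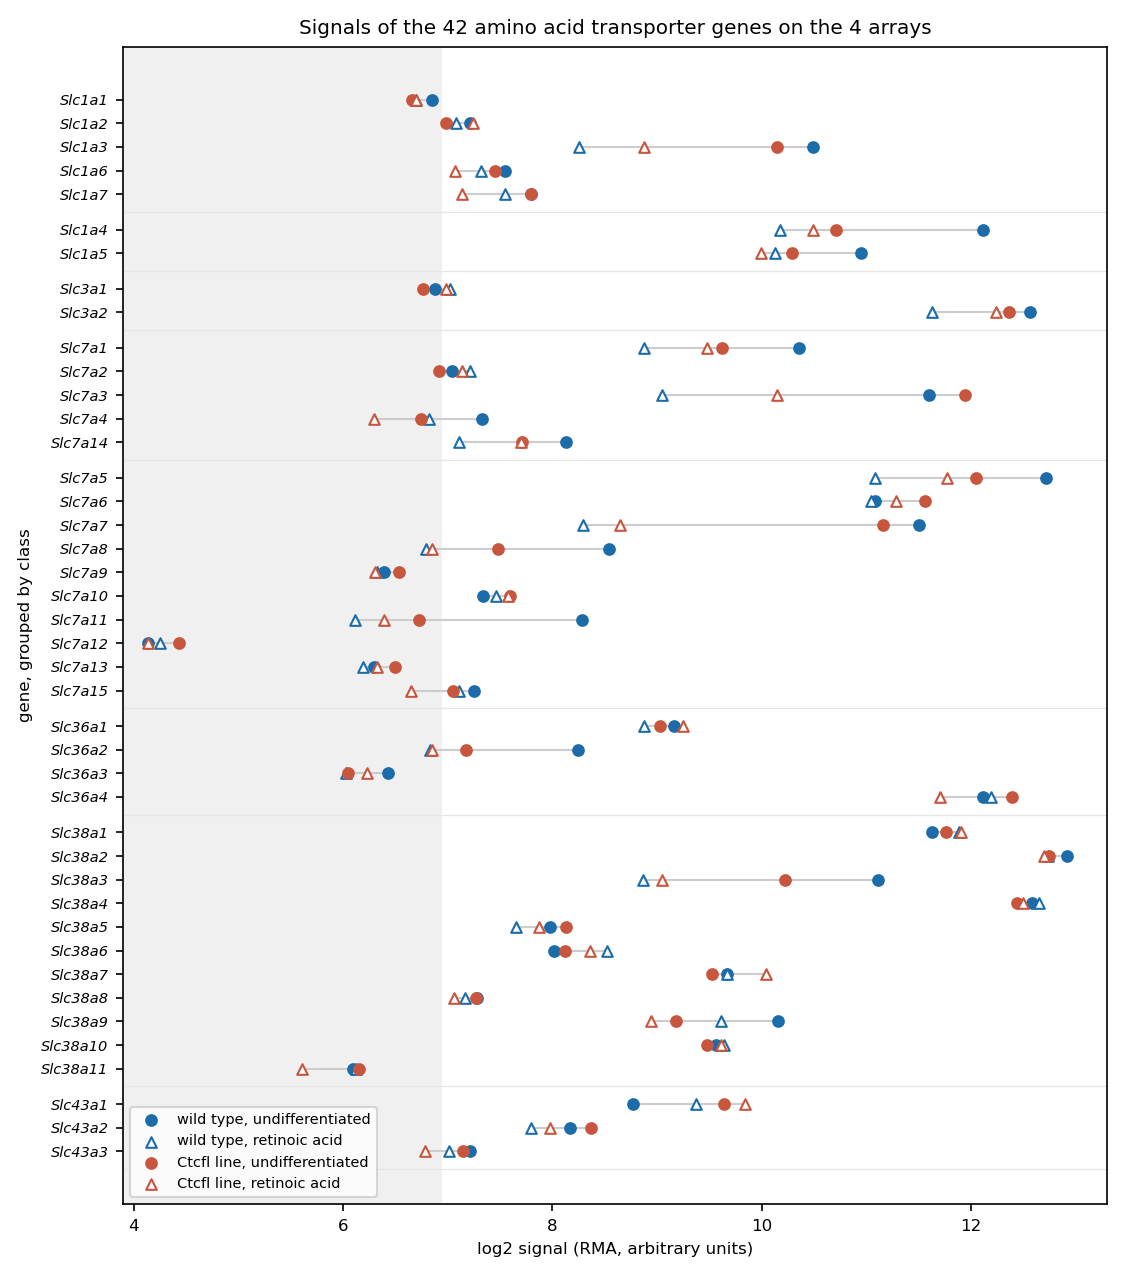
Log2 RMA signal of each of the 42 transporter genes (rows, grouped by class) on the 4 arrays, with circles for undifferentiated cells, triangles for retinoic acid, blue for wild type and red for the Ctcfl line; the grey band ends at 6.94, the highest 95th percentile of olfactory receptor genes on an array. Slc7a7, Slc7a3, Slc1a3 and Slc38a3 have both triangles left of both circles by wide gaps, whereas for Slc7a11 and Slc1a4 the blue circle stands apart from the other 3 points.

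Retinoic acid was followed by lower signals of a few amino acid carriers and by no called increase. The 4 arrays were fitted in limma with additive terms for treatment and line. In that fit 5 of the 41 transporters fell with retinoic acid, 0 rose and 36 did not pass, where 2.44% of all genes fell and 4.21% rose. The 5 were Slc7a7, Slc7a3, Slc1a3, Slc38a3 and Slc7a8. Their folds ranged from 7.24 for Slc7a7 to 2.28 for Slc7a8. The fit takes the difference between the lines in their retinoic acid response as its error and leaves 1 residual degree of freedom. Each gene's variance was pooled with a prior of 5.49 degrees of freedom taken from all genes compared. The SE and p-values thus lean more on the variance of other genes than on the gene's own spread. Both hold only spread between these 4 arrays. A gene called in this fit will nearly always move the same way in both lines. The agreement of the lines given below for called genes is thus no further support. An unadjusted p of 0.05 was passed by 17 of the 41, against 23.5% of all genes.

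Slc7a7 encodes the light chain y+LAT1, which exchanges cationic for neutral amino acids. Its signal was 11.50 in undifferentiated wild-type cells and 11.16 in the undifferentiated Ctcfl line, and 8.29 and 8.65 in retinoic acid. Both retinoic acid arrays were thus below both undifferentiated arrays, with no overlap. It fell 7.24-fold in limma (log2 -2.86 ± 0.20, SE, adjusted p = 0.00121, lower in 2 of 2 lines).

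Slc7a3 encodes CAT3, a carrier of arginine and lysine. Its signal was 11.60 and 11.94 in undifferentiated wild-type and Ctcfl-line cells, and 9.05 and 10.15 in retinoic acid. The groups again did not overlap, and the Ctcfl line was the higher of the lines in both states. Slc7a3 fell 4.49-fold in limma (log2 -2.17 ± 0.21, SE, adjusted p = 0.00362, 2 of 2 lines).

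Slc1a3 encodes the glutamate carrier GLAST, known from astrocytes and radial glia. It read 10.49 and 10.15 in undifferentiated wild-type and Ctcfl-line cells, and 8.26 and 8.88 in retinoic acid. It fell 3.35-fold in limma (log2 -1.75 ± 0.24, SE, adjusted p = 0.0111, 2 of 2 lines). The other glutamate carriers differed less. Slc1a1, Slc1a2, Slc1a6 and Slc1a7 had retinoic acid differences between -0.66 and 0.25 in either line, and their highest signal was 7.80.

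Slc38a3 encodes SNAT3, which carries glutamine, histidine and asparagine with sodium. Its signals were 11.11 and 10.22 in undifferentiated wild-type and Ctcfl-line cells, and 8.87 and 9.05 in retinoic acid. It fell 3.26-fold in limma (log2 -1.71 ± 0.26, SE, adjusted p = 0.0148, 2 of 2 lines). The difference was -2.24 in the wild type and -1.17 in the Ctcfl line, which began from a lower signal.

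Slc7a8 encodes the light chain LAT2, an exchanger of neutral amino acids. Its signal was 8.54 in undifferentiated wild-type cells, 7.48 in the undifferentiated Ctcfl line, and 6.79 and 6.85 in retinoic acid. The value of 6.79 is inside the range of the olfactory receptor genes, so its fold may be too small. Slc7a8 fell 2.28-fold in limma (log2 -1.19 ± 0.26, SE, adjusted p = 0.0498, 2 of 2 lines). This call was lost without the filter on low signals (adjusted p = 0.065) and with averaged probe sets (adjusted p = 0.0556).

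**Figure D2:**
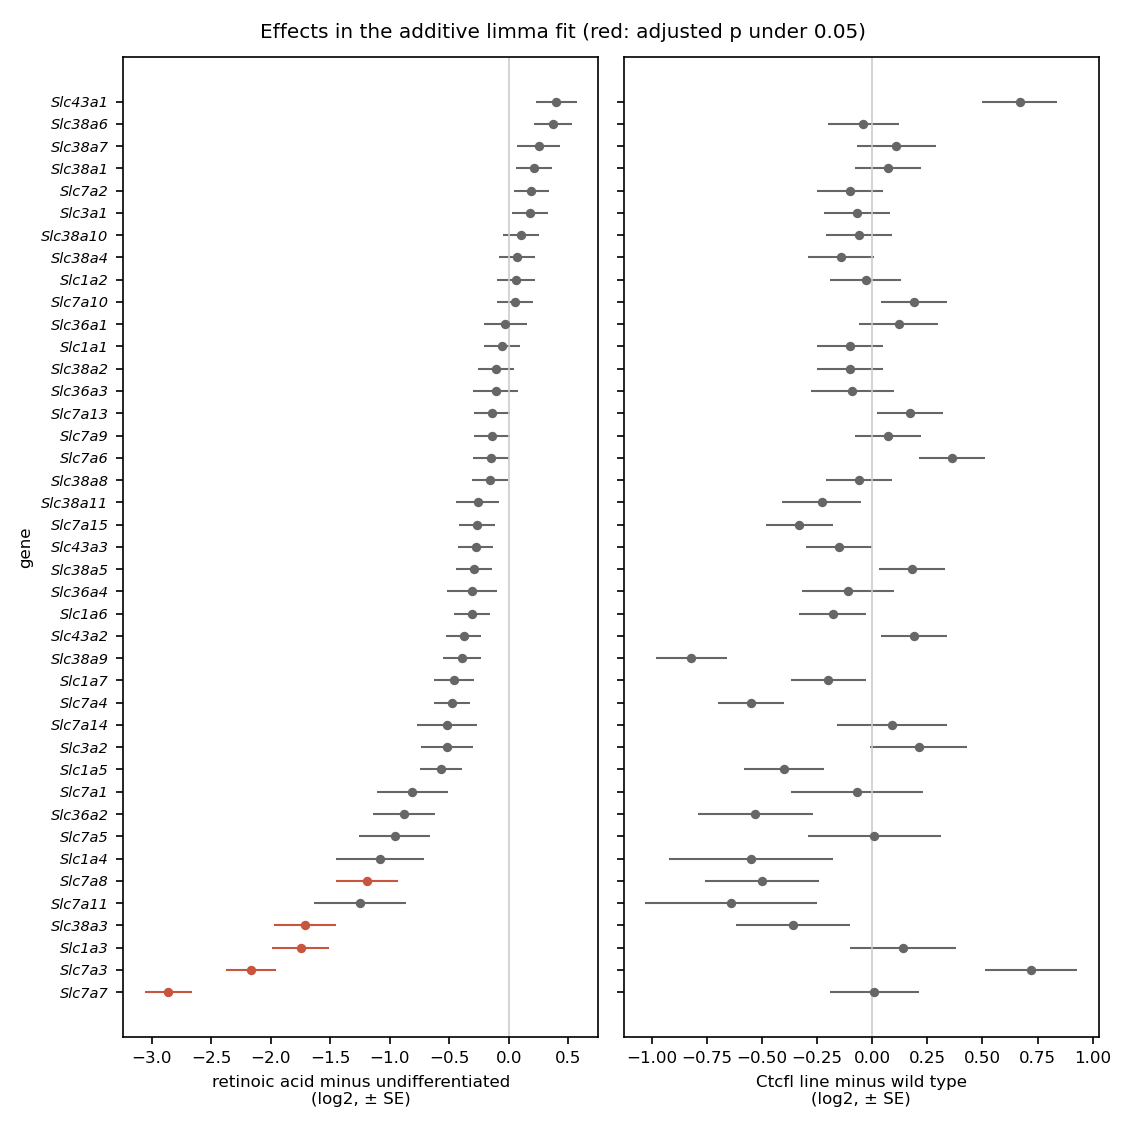
Effects of retinoic acid (left) and of the line (right) on the 41 transporters in the additive limma fit, in log2 units, with bars of 1 SE and red points for an adjusted p under 0.05. The 5 red points, from Slc7a7 at -2.86 to Slc7a8 at -1.19, all lie on the side of lower signal with retinoic acid, and no point is red for the line.

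Within the lines, 11 of the 41 transporters had dropped at least 2-fold below the untreated state in the wild type, where 2.62% of all genes had, and 4 in the Ctcfl line, where 1.5% of all genes were. In either line 0 transporters were 2-fold higher, beside 2.58% and 3.21% of all genes. The 4 in the Ctcfl line were Slc7a7 (log2 -2.51), Slc7a3 (-1.79), Slc1a3 (-1.27) and Slc38a3 (-1.17), which were also among the 11. In wild-type cells they were joined by Slc7a11, Slc1a4, Slc7a8, Slc7a5, Slc7a1, Slc36a2 and Slc7a14. The median over the 41 transporters was log2 -0.24 in the wild type and -0.22 in the Ctcfl line, beside -0.04 and -0.05 over all genes, so most members differed little and a few differed by much. Across the 41 genes the differences in the lines had a Pearson's r of 0.745, against 0.678 over all genes; genes are not independent replicates.

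**Figure D3:**
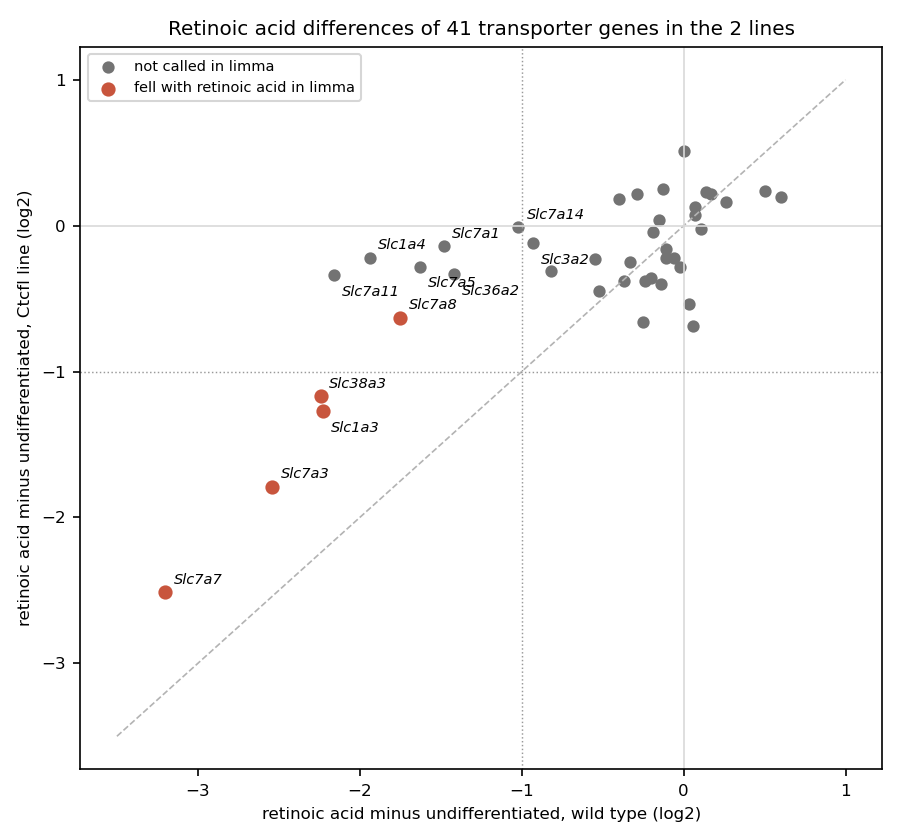
Log2 difference between retinoic acid and undifferentiated cells for each of 41 transporters, in the wild type (horizontal) and in the Ctcfl line (vertical), with a dashed line of equal response, dotted lines at a 2-fold decrease and red points for genes that fell in limma. Slc7a11, Slc1a4, Slc7a5, Slc7a1, Slc36a2 and Slc7a14 lie past the 2-fold line in the wild type at differences between -0.34 and -0.01 in the Ctcfl line.

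Those 6 further genes, with Slc7a8, had differences with retinoic acid in the wild type that were larger than in the Ctcfl line. The difference of the responses (Ctcfl line minus wild type) was at least 2-fold and positive in 8 of 41 transporters, where 1.9% of all genes were, and at least 2-fold and negative in 0, where 0.754% were. The 8 were these 7 genes and Slc38a3, and for Slc7a11 the count rests on Ctcfl-line signals that were at background. With 1 array a condition the difference has no test. The wild-type retinoic acid differences and the line differences of undifferentiated cells share the array of undifferentiated wild-type cells, and both are read from it below.

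Slc7a11 encodes xCT, the light chain that imports cystine in exchange for glutamate. Its signal was 8.28 in undifferentiated wild-type cells, 6.12 in the wild type with retinoic acid, 6.73 in the undifferentiated Ctcfl line and 6.39 in that line with retinoic acid. The first array alone was above the olfactory receptor percentile, and the other 3 lay within log2 0.61 of each other. The retinoic acid difference was log2 -2.16 in the wild type. In the Ctcfl line it was -0.34 between 2 signals below that percentile, so neither this value nor a difference of responses can be read as a size for Slc7a11. Averaged over the lines it did not pass (log2 -1.25 ± 0.39, SE, adjusted p = 0.119 in limma). A further Slc7a11 probe set read between 3.59 and 4.27, near or below the olfactory receptor medians of 4.70 to 4.79, and with the mean of both probe sets the wild-type difference was -1.35.

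Slc1a4 encodes ASCT1, an exchanger of alanine, serine and cysteine. It read 12.12 in undifferentiated wild-type cells, 10.18 with retinoic acid, and 10.71 and 10.49 in the Ctcfl line in the same order. As for Slc7a11, 1 array was high and the other 3 lay close together, within log2 0.53. The retinoic acid difference was log2 -1.94 in the wild type and -0.22 in the Ctcfl line (limma over both lines: -1.08 ± 0.37, SE, adjusted p = 0.146). Its relative Slc1a5, which encodes the glutamine exchanger ASCT2, read 10.95 and 10.13 in the wild type without and with retinoic acid, and 10.29 and 9.99 in the Ctcfl line. The undifferentiated wild-type array was again the highest, by a smaller gap, but the lowest was the Ctcfl line in retinoic acid. A weaker Slc1a5 probe set had differences between -0.25 and -0.13.

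Slc3a2 encodes the heavy chain 4F2hc (CD98), the partner of several Slc7 light chains. Its signal was 12.56 and 11.63 in the wild type without and with retinoic acid, and 12.36 and 12.24 in the Ctcfl line, so the wild-type retinoic acid array was the low one. Slc7a5 encodes LAT1, a light chain of Slc3a2 that carries leucine and other large neutral amino acids. It read 12.72 and 11.08 in the wild type, and 12.05 and 11.77 in the Ctcfl line. The retinoic acid difference of Slc7a5 was thus -1.63 in the wild type and -0.28 in the Ctcfl line. The limma effects did not pass for Slc3a2 (-0.52 ± 0.22, SE, adjusted p = 0.211) or Slc7a5 (-0.96 ± 0.30, SE, adjusted p = 0.125).

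Among the other light chains, Slc7a6 (y+LAT2) read between 11.05 and 11.56 and Slc7a10 (Asc-1) between 7.34 and 7.60. Slc7a9, which pairs with the heavy chain Slc3a1, stayed between 6.31 and 6.54, and Slc3a1 itself between 6.77 and 7.02. Both of that pair were at or near the range of olfactory receptor genes. The set of 9 light chains compared thus held 2 genes that fell (Slc7a7 and Slc7a8) and 7 that did not pass.

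Slc7a1 encodes CAT1, a widely used carrier of arginine. It read 10.36 and 8.88 in the wild type without and with retinoic acid, and 9.62 and 9.48 in the Ctcfl line. Its retinoic acid difference was log2 -1.48 in the wild type against -0.14 in the Ctcfl line, and the limma effect did not pass (-0.81 ± 0.30, SE, adjusted p = 0.172). Slc7a14, a relative of the cationic carriers, read 8.13 and 7.11 in the wild type, and 7.71 and 7.70 in the Ctcfl line. Its retinoic acid differences were -1.02 and -0.01.

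Slc36a2 encodes PAT2, which carries glycine, alanine and proline with protons. Its signal was 8.25 in undifferentiated wild-type cells, 6.83 with retinoic acid, and 7.18 and 6.85 in the Ctcfl line. Again the undifferentiated wild-type array was high, by log2 1.08 over the next, and the limma effect of retinoic acid did not pass (-0.88 ± 0.26, SE, adjusted p = 0.11). Its neighbours Slc36a3 and Slc36a1, with 0 protein-coding genes between them and Slc36a2, ranged from 6.03 to 6.43 and from 8.88 to 9.25. For Slc36a4 (PAT4) the probe set used had a retinoic acid difference of -0.69 in the Ctcfl line, whereas its weaker probe set had 0.77, so its direction there depends on the probe set.

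Over the 4 arrays, the undifferentiated wild-type array was the highest in 21 of 41 transporters, beside 33.3% of all genes. It was at least 2-fold above the next highest array in 4 of 41, which were Slc7a11, Slc1a4, Slc36a2 and Slc7a8, beside 0.388% of all genes. Comparisons that leave that array out are those of retinoic acid in the Ctcfl line and of the lines in retinoic acid. In them these 4 genes had log2 differences from -0.63 to -0.22 and from 0.02 to 0.31. Slc7a11 was at background on all arrays but the undifferentiated wild-type one, and Slc36a2 and Slc7a8 in wild-type retinoic acid (6.83 and 6.79). Differences of these genes may thus be too small. Only Slc1a4 was above the olfactory receptor percentile on all 4 arrays, with differences of -0.22 and 0.31. The part of that single array in the pattern was not tested, and with 1 array a condition it cannot be told apart from the line and the treatment.

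**Figure D4:**
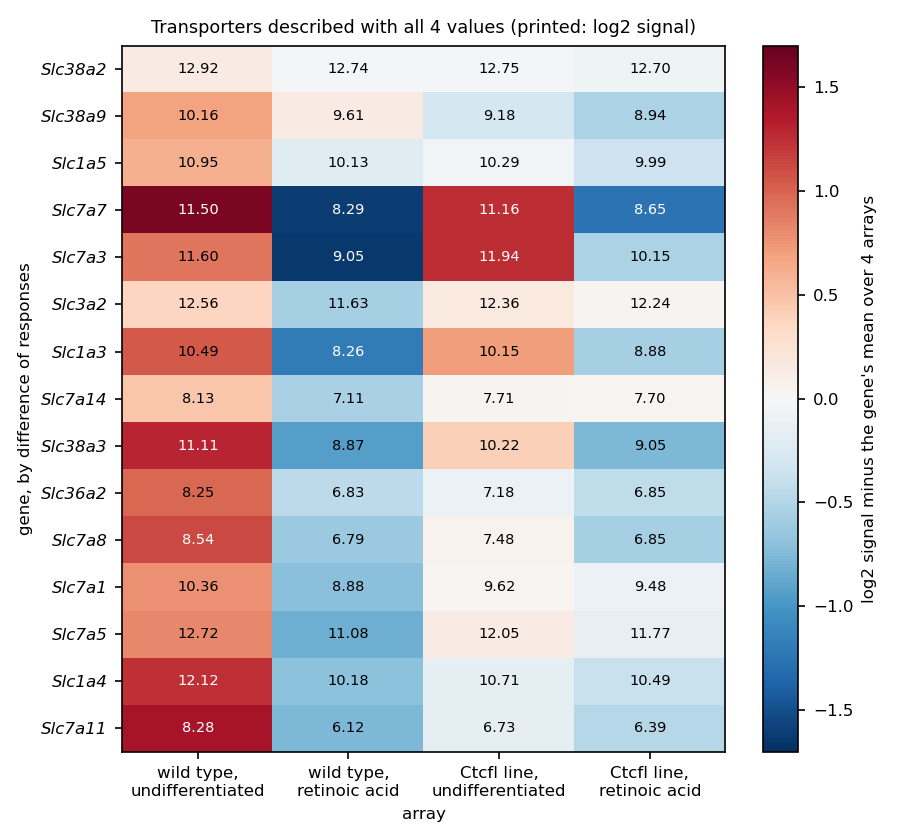
Log2 signals (printed) of 15 transporters on the 4 arrays, coloured by their distance from the gene's mean over the arrays and ordered by the difference of the retinoic acid responses. In the lowest rows (Slc7a11, Slc1a4, Slc7a5, Slc7a1) the left column is red and the others are near or below 0. For Slc7a5 and Slc7a1 the wild-type retinoic acid array lies about as far below the mean as the left column lies above it. Those 2 arrays read 11.08 and 12.72 around a mean of 11.91 for Slc7a5, and 8.88 and 10.36 around 9.59 for Slc7a1. Slc7a7 and Slc7a3 are red in both undifferentiated columns.

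Of the 11 sodium-coupled carriers 1, Slc38a3, fell and 10 did not pass. Slc38a2 encodes SNAT2, a carrier of small neutral amino acids that cells induce when amino acids are scarce. It read 12.92, 12.74, 12.75 and 12.70 on the wild-type undifferentiated, wild-type retinoic acid, Ctcfl undifferentiated and Ctcfl retinoic acid arrays, a range of log2 0.22. Its chromosomal neighbours Slc38a1 and Slc38a4 ranged from 11.63 to 11.91 and from 12.44 to 12.65. In retinoic acid Slc38a6 was higher by log2 0.50 (wild type) and 0.24 (Ctcfl line), which did not pass in limma (adjusted p = 0.219). Of the 41 transporters, 20 had log2 differences under 0.5 in all 4 comparisons of single arrays.

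Between the lines, few transporters differed in both states. In undifferentiated cells the signal of 4 of 41 was under that of the wild type by at least 2-fold in the Ctcfl line, beside 1.09% of all genes, and 0 were 2-fold higher, beside 0.726%. These were Slc7a11 (2.94-fold, from a Ctcfl-line signal at background), Slc1a4 (2.66-fold), Slc36a2 (2.11-fold) and Slc7a8 (2.08-fold). In retinoic acid 1 of 41 was at least 2-fold higher, beside 0.83%, namely Slc7a3 at 2.14-fold, and 0 were 2-fold lower, beside 0.399%. The median line difference of the 41 was log2 -0.14 before and 0.06 after retinoic acid, and -0.02 over all genes in both.

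In limma 0 of 41 transporters rose or fell with the line, beside 0.0273% and 0.0164% of all genes. An unadjusted p of 0.05 was passed by 4 of 41, a share close to the 9.81% of all genes. These 4 were lower or higher in both states, which a low p in this fit nearly requires. Slc38a9 encodes a lysosomal carrier that senses arginine for mTORC1. It read 10.16 and 9.61 in the wild type without and with retinoic acid, and 9.18 and 8.94 in the Ctcfl line, so that both arrays of the line were below both wild-type arrays (-0.82, adjusted p = 0.25 in limma). Slc7a4, whose transport function is not settled, had line differences of -0.59 and -0.51 (adjusted p = 0.371), but it was above the olfactory receptor percentile on 1 array only (7.33), so the difference in retinoic acid (6.82 against 6.30) compares signals at background. Slc43a1, which encodes the leucine carrier LAT3, had line differences of 0.87 and 0.47 (adjusted p = 0.348), and Slc7a3 had 0.34 and 1.10 (adjusted p = 0.385).

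Genes of the ATF4 response, which include the enzymes that make asparagine, serine and proline, were highest on the undifferentiated wild-type array in 22 of 26 cases, where 33.3% of all genes were. The exceptions include Atf3, a stress transcription factor named after its values were seen, which was highest in the Ctcfl line with retinoic acid (9.68). The list was chosen with earlier results of these data known, so its direction is not independent evidence. Of 26 genes with a value, 2 fell with retinoic acid in limma and 0 rose, beside 2.44% and 4.21% of all genes. The remaining 24 did not pass. At least 2-fold lower were 13 of 26 in the wild type, beside 2.62% of all genes, and 1 of 26 in the Ctcfl line, beside 1.5%, and the medians were log2 -1.02 and -0.17. In 8 of 26 the response of the Ctcfl line exceeded that of the wild type by 2-fold or more (a smaller decrease or a larger increase), beside 1.9% of all genes. Cth, which makes cysteine from cystathionine, fell by 1.98 on the log2 scale (adjusted p = 0.00145 in limma), with differences of -1.95 in the wild type and -2.02 in the Ctcfl line. The other was Trib3, an inhibitor of ATF4 activity, which is named after its value was seen (log2 -0.93, adjusted p = 0.0393). Chac1, which degrades glutathione, read 10.09 and 7.63 in the wild type, and 8.65 and 8.02 in the Ctcfl line. Mthfd2, a mitochondrial folate enzyme, read 11.33 and 9.25, and 10.51 and 9.99. These 2 did not pass (adjusted p = 0.0701 and 0.0789 in limma).

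The same list was lower in the undifferentiated Ctcfl line, with a median of log2 -0.47 beside -0.02 over all genes. In it 25 of 26 genes were below 0, beside 9727 of all 18310, and 6 were at least 2-fold lower, beside 1.09%. Between the lines in retinoic acid its median was 0.26, beside -0.02. The undifferentiated differences use the same wild-type array as the counts above. Ddit4, an inhibitor of mTORC1 signalling, differed by log2 -1.30 between the undifferentiated lines, Chac1 by -1.43, and Ddit3, a stress transcription factor, by -1.21. Slc7a11 (at background in the Ctcfl line), Slc1a4, Slc7a5 and Slc7a1 had line differences of -1.56, -1.41, -0.67 and -0.74 in the same comparison. In retinoic acid they had 0.27, 0.31, 0.69 and 0.60. Slc3a2, Slc38a2, Slc7a7 and Slc7a3 had -0.20, -0.18, -0.34 and 0.34 between the undifferentiated lines. Of the 41 transporters 28 were below 0 there and 13 above, with a median of -0.14. The part of ATF4 in the transporter differences was not tested. The number of the list's genes called with retinoic acid moved from 2 to 7 with quantile normalization, to 8 with equal array medians, to 5 with a variance prior that follows mean expression, and to 1 without the filter.

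Other amino acid carriers were taken from the families Slc6, Slc16, Slc17, Slc25, Slc32, Slc66 and the sideroflexins, with cystinosin. With retinoic acid their medians were log2 -0.13 in the wild type and -0.19 in the Ctcfl line. Those of all genes were -0.04 and -0.05, and those of the 41 transporters -0.24 and -0.22. Of the 29 other carriers 2 fell and 0 rose, beside 2.44% and 4.21% of all genes. Slc6a15, a carrier of branched amino acids and proline, read 9.32 and 7.43 in the wild type without and with retinoic acid, and 8.74 and 7.49 in the Ctcfl line. It fell by 1.56 on the log2 scale (adjusted p = 0.00803 in limma). Sfxn1, the mitochondrial serine carrier, fell by 0.84 (adjusted p = 0.031). Slc16a10, a carrier of aromatic amino acids, differed by -0.89 and -0.40 in the lines and did not pass (adjusted p = 0.0884). Between the undifferentiated lines Sfxn3 differed by -1.15 and the lysosomal cystine exporter Ctns by -0.58.

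Of 32 genes that sense amino acids for mTORC1, 2 fell with retinoic acid and 0 rose, beside 2.44% and 4.21% of all genes. Castor1, a cytosolic arginine sensor, fell by 0.92 on the log2 scale (adjusted p = 0.0182 in limma), and the transcription factor gene Tfe3 fell by 0.90 (adjusted p = 0.0205). Rragb, a Rag GTPase, had -0.69 (adjusted p = 0.0526). The medians were -0.25 in the wild type and 0.05 in the Ctcfl line, beside -0.04 and -0.05 over all genes. At least 2-fold lower in the wild type was 1 of 32, beside 2.62% of all genes. It was Sesn2, a leucine sensor named after its value was seen. Sesn2 read 10.15 and 9.11 there and 9.85 and 9.69 in the Ctcfl line. The difference of responses had a median of 0.24, beside 0.08 over the transporters and -0.01 over all genes. It was above 0 in 21 of 32, beside 8909 of all 18310 genes, and reached 2-fold in 0 of the list. In undifferentiated cells Nprl2, Sesn3 and Lamtor2 differed by -0.88, -0.73 and -0.69 between the lines.

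Genes of NRF2 and glutathione were highest on the undifferentiated wild-type array in 1 of 12 cases, beside 33.3% of all genes. Of 12 genes 0 rose and 0 fell with retinoic acid in limma, with medians of log2 -0.14 and -0.16 in the lines, and 4 of 12 passed an unadjusted p of 0.05, beside 23.5% of all genes. For the line 0 of 12 were called and 5 of 12 passed the unadjusted p, beside 9.81%. Between the undifferentiated lines the median was 0.28, beside -0.02 over all genes. Slc7a11 had -1.56 there, from a Ctcfl-line signal at background. The part of NRF2 in the transporter differences was not tested. Gclm, a subunit of the enzyme that starts glutathione synthesis, read 10.10 and 9.69 in the wild type, and 10.92 and 10.45 in the Ctcfl line. Gclc, its catalytic partner, differed by 0.45 between the undifferentiated lines and Keap1, the inhibitor of NRF2, by 0.54. Hmox1, which degrades haem, read 9.85 and 8.64 in the wild type, and 10.07 and 9.74 in the Ctcfl line.

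**Figure D5:**
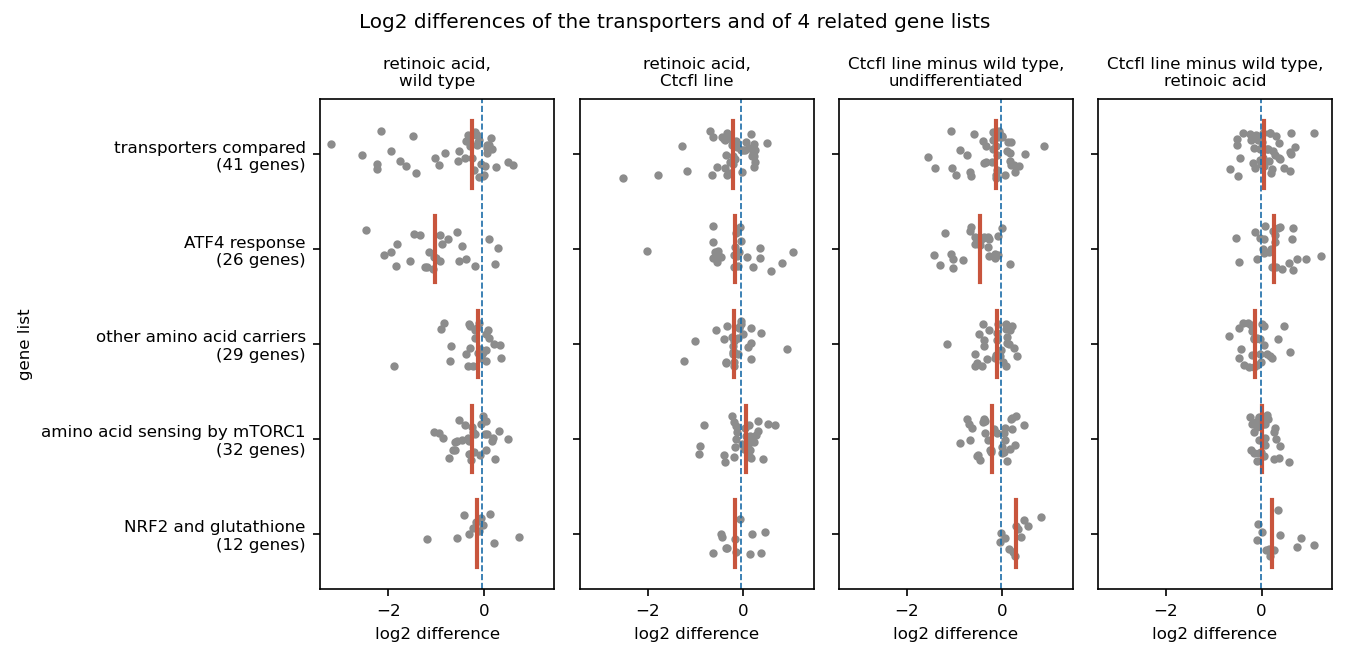
Log2 differences of single genes (grey points) in 4 comparisons for the 41 transporters and the 4 related lists, with red bars at each list's median and a dashed blue line at the median of all genes. The ATF4 list has its median at -1.02 for retinoic acid in the wild type and at -0.17 in the Ctcfl line, and the transporters spread from -3.20 to 0.60 in the wild type.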

How the data were processed

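RNA of 4 conditions, 1 array each, was measured on Affymetrix arrays. Per the labels, the authors deposited RMA values on a log2 scale from Expression Console. Transcriptome Analysis Console is named too, per the submitters' processing notes. Versions and genome build are not given in the sources used here. The values were used without renormalization. The annotation gave 1 symbol to 23521 of 41345 probe sets, several symbols to 1814 and none to 16010. Where probe sets shared a single symbol, the one with the highest mean stood for the gene. Genes below log2 6 on all arrays were left out.

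Single arrays were compared by log2 differences and a 2-fold limit, without a test. Effects averaged over lines or states came from limma 3.58.1 in R 4.3.3 (lmFit, eBayes, retinoic acid and line as additive terms, 1 residual degree of freedom, prior of 5.49), two-sided, with Benjamini-Hochberg adjustment over 18310 genes and a threshold of 0.05. On simulated data from 18310 genes the fit found 73% of 2-fold and 100% of 4-fold retinoic acid changes, with 8.47% false calls. For the line it found 81% and 100%, with 9.5%.

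Any transporter could be named. Full values went to those called in limma or at least 2-fold apart in any comparison and to a few fixed for their roles. From each related list up to 3 genes were named for retinoic acid and 3 for the undifferentiated line difference. Members and lists were chosen with earlier results of these data known. Tried as alternatives were a filter at log2 7 or none, quantile normalization, equal array medians over genes, the mean of probe sets, a variance prior that follows expression, and a 3-fold limit. Promoter windows came from RefSeq on GRCm38.p6. Chromosomal order came from a gene table of the same assembly.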

Additional observations from a re-analysis of the deposited data

Results flagged for a closer look

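Ddit3, of the ATF4 list, was lower with retinoic acid by log2 1.55 in the wild type (9.47 to 7.92) and higher by 0.59 in the Ctcfl line (8.26 to 8.85). The responses thus went in opposite directions and differed by log2 2.14. With 1 array in each condition, this difference was not tested.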

How the results depend on the processing

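With retinoic acid, Slc7a7, Slc7a3, Slc1a3 and Slc38a3 were called under each of the 6 alternatives to the limma fit, and Slc7a8 under 4 of them. The transporters called numbered 4 with unfiltered genes or averaged probe sets, and 5 otherwise; 0 were called for the line under any of these alternatives. Over all genes the line calls were 8 as reported, 23 with quantile normalization, 42 with equal array medians and 15 with the variance prior that follows expression. With a 3-fold limit, 2 transporters were apart with retinoic acid in the Ctcfl line, 0 between the lines in undifferentiated cells, 0 between the lines in retinoic acid, and 2 in the difference of responses. The ATF4 genes called with retinoic acid were 1 without the filter, 7 with quantile normalization, 8 with equal array medians and 5 with the variance prior. Chac1, Mthfd2 and Ddit4, not called as reported, passed with quantile normalization and with equal array medians. Rragb passed under the same 2 settings (adjusted p = 0.0335 and 0.0451 in limma). Slc16a10 passed with quantile normalization (adjusted p = 0.0405 in limma). The cause of these moves was not tested, except that fewer or more genes were tested under the filters. The reported fit already compares treatment within each line, and the labels give no replicate numbers for a further block. Leaving out an array would leave the fit without residual degrees of freedom. Arrays give no detection calls here, so signals near the olfactory receptor genes limit what Slc7a11, Slc7a4, Slc7a8 and Slc36a2 can show.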
